A study of Homo sapiens with 42 samples.

Results

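The genes described here are 37 genes of the hypoxia response and of glycolysis, read in 2 lung cancer cell lines after irradiation. They are 2 alpha subunits of the hypoxia-inducible factor (HIF), 14 genes that HIF typically induces (called HIF-type targets below) and 21 glycolytic genes. Each was read from the entry of the array table that carries its symbol alone, and where a gene had several such entries the brightest on average was taken. In all, 34 of the 37 were measured, among 18404 genes tested: 2 of 2 HIF alpha subunits, 13 of 14 HIF-type targets and 19 of 21 glycolytic genes. CA9, SLC16A3 and PGAM1 were not analysed here. The lines are H460, a large-cell lung carcinoma line described as radiosensitive, and H1299, a non-small cell lung cancer line described as radioresistant. Each was grown as a monolayer, and dividing cultures received 2 Gy of gamma radiation. Transcript levels were read on 42 Affymetrix arrays of 1 colour, with 6 arrays per line at 0 h, before irradiation, and 3 per line at 2, 4, 8, 12 and 24 h after it, which makes 12 groups. No array of unirradiated cells after 0 h was used, so irradiation and time in culture cannot be told apart. Each line stands for itself only, and the labels speak of biological replicates without saying whether cultures were separate, so p-values measure the spread between these arrays.

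HIF is a transcription factor made of an alpha subunit, HIF1A or EPAS1, and the partner ARNT. In oxygen, the prolyl hydroxylases EGLN1 and EGLN3 mark the alpha subunit for destruction through VHL, and in low oxygen the subunit persists and induces genes for glucose uptake, glycolysis, vessel growth, acid export and mitochondrial turnover. Regulation of the alpha subunits is known to act largely on the protein, which these arrays did not read. Lung cancer cells in culture typically take up much glucose and convert it to lactate even where oxygen is present.

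HIF binds DNA at short sites with the core letters ACGTG or GCGTG. A promoter window (250 bases before to 50 after a gene's start, RefSeq, GRCh38.p14) was available for 29 of the 34 measured genes, and both strands were searched for these 2 words, overlaps included. Of the 52 windows of these genes, 36 (69.2%) held at least 1 match, against 17012 of 35116 windows of all genes (48.4%). Counted by gene, with any window of a gene sufficing, 27 of the 29 held a match: 2 of 2 alpha subunits, 8 of 10 HIF-type targets and 17 of 17 glycolytic genes, against 52.4% of 27305 genes in the table. A match is a run of letters and not a binding site. SLC2A3, VEGFA, PFKFB2, BNIP3L and NDRG1 had no entry. The windows of 4 genes that the results below turn on, chosen after their values were seen, follow 5′ to 3′ on the strand of the gene. Matches are in capitals, and the genes were taken because they span 6 matches, 1 match and no match. EPAS1 lies at chr2:46297157-46297456 on the plus strand, ADM at chr11:10304823-10305122 on the plus strand, BNIP3 at chr10:131981874-131982173 on the minus strand and P4HA2 at chr5:132227042-132227341 on the minus strand.
EPAS1: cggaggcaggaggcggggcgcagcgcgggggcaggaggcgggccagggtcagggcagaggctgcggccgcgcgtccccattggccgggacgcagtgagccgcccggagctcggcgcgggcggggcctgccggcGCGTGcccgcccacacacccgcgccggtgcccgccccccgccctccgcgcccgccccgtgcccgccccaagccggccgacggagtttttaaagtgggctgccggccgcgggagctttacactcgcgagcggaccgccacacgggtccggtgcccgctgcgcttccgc
ADM: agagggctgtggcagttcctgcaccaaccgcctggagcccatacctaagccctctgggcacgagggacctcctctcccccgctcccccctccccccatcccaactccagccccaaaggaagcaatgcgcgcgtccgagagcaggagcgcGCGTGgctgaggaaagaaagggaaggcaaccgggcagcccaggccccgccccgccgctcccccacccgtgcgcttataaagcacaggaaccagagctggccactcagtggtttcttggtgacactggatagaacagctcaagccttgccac
BNIP3: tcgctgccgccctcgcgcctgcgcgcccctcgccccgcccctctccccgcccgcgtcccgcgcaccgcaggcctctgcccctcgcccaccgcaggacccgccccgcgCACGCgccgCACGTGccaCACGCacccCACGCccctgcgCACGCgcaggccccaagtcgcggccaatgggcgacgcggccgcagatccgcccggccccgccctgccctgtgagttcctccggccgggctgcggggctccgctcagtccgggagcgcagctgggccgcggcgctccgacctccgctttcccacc
P4HA2: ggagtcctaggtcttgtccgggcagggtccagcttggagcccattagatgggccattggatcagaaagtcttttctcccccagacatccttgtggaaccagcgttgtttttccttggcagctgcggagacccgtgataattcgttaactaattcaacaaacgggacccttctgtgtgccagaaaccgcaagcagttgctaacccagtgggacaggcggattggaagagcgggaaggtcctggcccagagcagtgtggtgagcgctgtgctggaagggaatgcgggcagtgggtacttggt

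The values are deposited log2 intensities without detection calls. Array medians over these genes ran from 5.97 to 6.18, and no 2 arrays were identical (0 pairs). The arrays differed in width, the interquartile range over genes: in H460 it averaged 3.34, 2.84, 3.34, 3.64, 3.67 and 3.64 at 0, 2, 4, 8, 12 and 24 h, and in H1299 it averaged 3.58, 3.53, 3.66, 3.81, 3.82 and 3.67. Width thus moved with time in H460, and less so in H1299. The counts over all members below say how many calls were kept with width as a covariate, and the genes described carry the value where the call was lost. The counts for lists of other pathway genes do not say it. Quantile normalization, which makes the arrays alike in width, and a setting without some narrow arrays are given in the closing sections. Beyond these settings the part of width in the results was not tested. The fitted coefficient on width, in log2 units per unit of width, had a median of 0.39 over the HIF-type targets and 0.24 over the glycolytic genes in H460, against 0.04 over all genes. In H1299 these medians were 0.23 and 0.14, against -0.05 over all genes. Without detection calls and with no common scale between genes, the levels of cell type markers do not say whether a marker is expressed. The mean level of the 5 leukocyte markers measured ran from 3.73 to 4.26 over the H460 arrays and from 3.27 to 3.75 over the H1299 arrays, and that of 6 fibroblast markers from 4.90 to 5.30 in H460 and from 4.12 to 4.60 in H1299. The 6 epithelial markers averaged 8.20 to 8.48 in H460 and 6.59 to 7.03 in H1299. Among them CDH1, the cadherin of epithelial junctions, was the lowest, with 3.82 in H460 and 3.62 in H1299. The highest were KRT8 with 12.17 in H460 and KRT18 with 12.03 in H1299.

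The question was how these genes moved over a day after irradiation, and whether HIF-type and glycolytic genes moved alike in the 2 lines. In H460 all 13 members called at 2 h fell, and most called at 12 and 24 h rose. The glucose transporter SLC2A3, the mitophagy receptor BNIP3L, the alpha subunit EPAS1, the collagen hydroxylase subunit P4HA2 and the glycolytic regulator PFKFB2 rose at 24 h with and without array width in the model. In H1299 the called changes ran in both directions at each time. In these bulk extracts, fewer cells expressing a gene and less of its RNA per cell cannot be told apart. Quadratic regression on hours (limma, moderated F-test, adjusted p under 0.05 over all genes) called 18 of 34 members in H460, beside 41.9% of all genes, and 14 of 34 in H1299, beside 36.5%. Of these calls 7 of the 18 and 10 of the 14 were kept with width in the model. With 1 array left out at a time, 6 of the 18 and 4 of the 14 were lost in some refit. A total of 7 members were called in both lines, 11 in H460 alone, 7 in H1299 alone and 9 in neither, which does not show that their courses differ. At least 1 time point differed from 0 h for 23 members in H460, beside 66.7% of all genes, and for 15 in H1299, beside 44.8%, so both shares lay near those of all genes. Of the 34, 7 were lower at some time and higher at another in H460, beside 17.4% of all genes, and 0 were in H1299, beside 1.77%.

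By time point in H460, against 0 h, 13 members fell and 0 rose at 2 h, where 40.4% of all genes were called, 16.7% higher and 23.7% lower. At 4 h 1 fell, where 2.92% of genes were called, 1.37% higher and 1.55% lower. At 8 h 3 rose and 1 fell, where 16.9% were called (10.7% higher, 6.22% lower), and at 12 h 10 rose and 1 fell, where 33.5% were called (16.7% higher, 16.8% lower). At 24 h 14 rose and 3 fell, 17 of 34, where 28.7% of all genes were called with 16.2% higher and 12.4% lower. Counted in either direction, the shares of members called at 2 h and 12 h lay near those of all genes. By direction they did not, since all 13 called at 2 h fell and 10 of the 11 called at 12 h rose. By mean level over all arrays the members ran from the 37.8th percentile of all genes (ANKRD37) to the 99.99th (ENO1). The shares of all genes were not matched for level, so they are not a like background for the direction. Of the 17 members called at 24 h, the arrays of 13 did not overlap those at 0 h, where 73.9% of all genes called did not. Called or not, 15 of 34 members had no overlap, beside 26.2% of all genes. With array width in the model 5 of the 17 kept their call: SLC2A3, BNIP3L, EPAS1, P4HA2 and PFKFB2. Of the 13 called at 2 h, 0 kept it, in a model where 2 h was also the time of the narrowest arrays, and of the 11 called at 12 h, SLC2A3 and PFKFB2 did. The 1 call at 4 h was kept, and 0 of the 4 at 8 h were.

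In H1299, against 0 h, 2 members rose and 6 fell at 2 h, where 13.8% of all genes were called, 5.88% higher and 7.93% lower. At 4 h 2 rose and 4 fell, where 15.9% were called (10.0% higher, 5.83% lower), and at 8 h 5 rose and 3 fell, where 24.6% were called (15.0% higher, 9.54% lower). At 12 h 4 rose and 5 fell, where 29.7% were called (16.6% higher, 13.1% lower). At 24 h 5 rose and 2 fell, 7 of 34, where 11.7% were called (8.53% higher, 3.21% lower). At 4, 8 and 12 h the share of members called in either direction was close to that of all genes. With width in the model all calls at 2, 4 and 24 h were kept, while 5 of 8 were at 8 h, where HK2, KDM3A and PFKFB3 lost it, and 7 of 9 at 12 h, where ALDOC and PFKFB3 did.

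**Figure D1:**
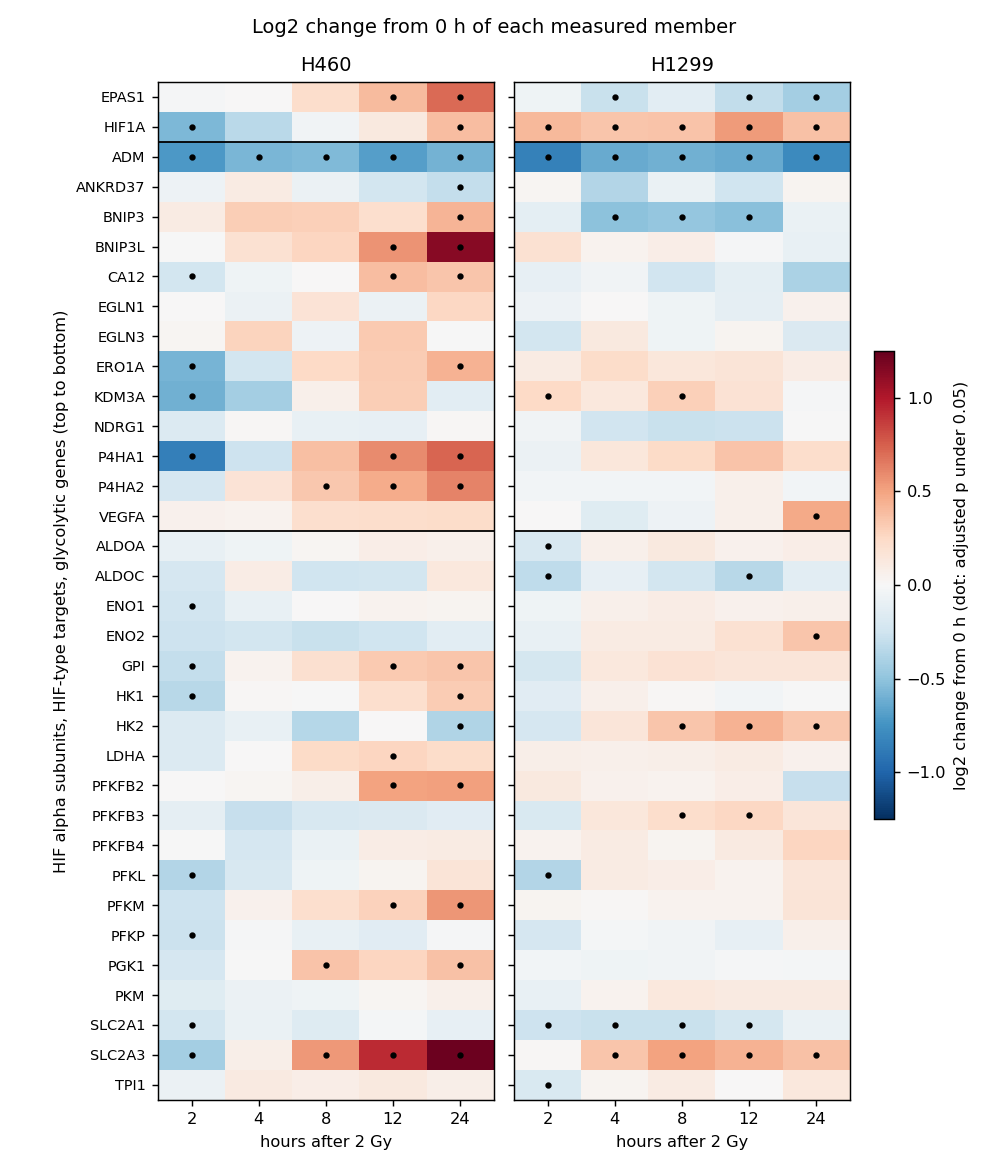
Log2 change from 0 h (colour) of the 34 measured genes, in rows from the HIF alpha subunits through the HIF-type targets to the glycolytic genes, at 2 to 24 h after 2 Gy in H460 (left) and H1299 (right). Dots mark adjusted p under 0.05; in H460 the 2 h column holds 13 falls and the 24 h column 14 rises and 3 falls.

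Both HIF alpha subunits changed in both lines, and EPAS1 did so in opposite directions. EPAS1, the alpha subunit restricted to fewer tissues, had 9.86, 9.84 and 9.87 on the H460 arrays at 24 h, against a lowest of 8.78, a median of 9.21 and a highest of 9.30 on the 6 arrays at 0 h. In H1299 it had 5.02, 5.09 and 5.17 at 24 h, against a lowest of 5.29, a median of 5.55 and a highest of 5.70 at 0 h. In neither line did the 24 h arrays overlap those at 0 h, with H460 above them and H1299 below. The change was 0.71 ± 0.10 in H460 (log2, model SE, 1.64-fold, adjusted p = 6.89e-06) and -0.43 ± 0.10 in H1299 (adjusted p = 0.00369). The H460 means rose step by step late in the course, with 9.15, 9.13, 9.15, 9.37, 9.54 and 9.86 at 0, 2, 4, 8, 12 and 24 h, and the change at 12 h was 0.39 ± 0.10 (adjusted p = 0.00438, and 0.307 with width in the model). The H1299 means were 5.52, 5.47, 5.24, 5.39, 5.21 and 5.09 over the same times. Without detection calls it is not known whether these H1299 values lie above background.

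HIF1A, the widely expressed alpha subunit, rose at all 5 times in H1299. Its H1299 arrays read 9.86, 9.96 and 10.05 at 2 h, 9.91, 9.86 and 9.92 at 4 h, 9.81, 9.98 and 9.91 at 8 h, 9.96, 10.16 and 10.13 at 12 h, and 9.88, 9.93 and 9.93 at 24 h, against 9.30 to 9.63 (median 9.59) at 0 h. All 15 later arrays lay above all 6 at 0 h. The changes ran from 0.35 ± 0.07 at 4 h to 0.53 ± 0.07 at 12 h (adjusted p = 0.000775 and 2.53e-06), and at 8 h the change with width in the model was 0.20 and still called. In H460, HIF1A had 10.80, 10.97 and 10.75 at 24 h, and 10.13, 10.05 and 9.50 at 2 h, against 10.18 to 10.93 (median 10.46) at 0 h. The 2 h arrays lay below and the 24 h arrays overlapped the upper end of 0 h. The H460 change was -0.56 ± 0.14 at 2 h (adjusted p = 0.00293) and 0.38 ± 0.14 at 24 h (adjusted p = 0.0395). Without H460 2 h replicate 3 the 2 h change was -0.36 (adjusted p = 0.0541), and with width in the model it was -0.22 (adjusted p = 0.854). The 24 h call was lost in turn without H460 0 h replicates 2, 3, 4 and 5 or any of the 3 arrays at 24 h, with adjusted p up to 0.183, and with width in the model its adjusted p was 0.671.

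**Figure D2:**
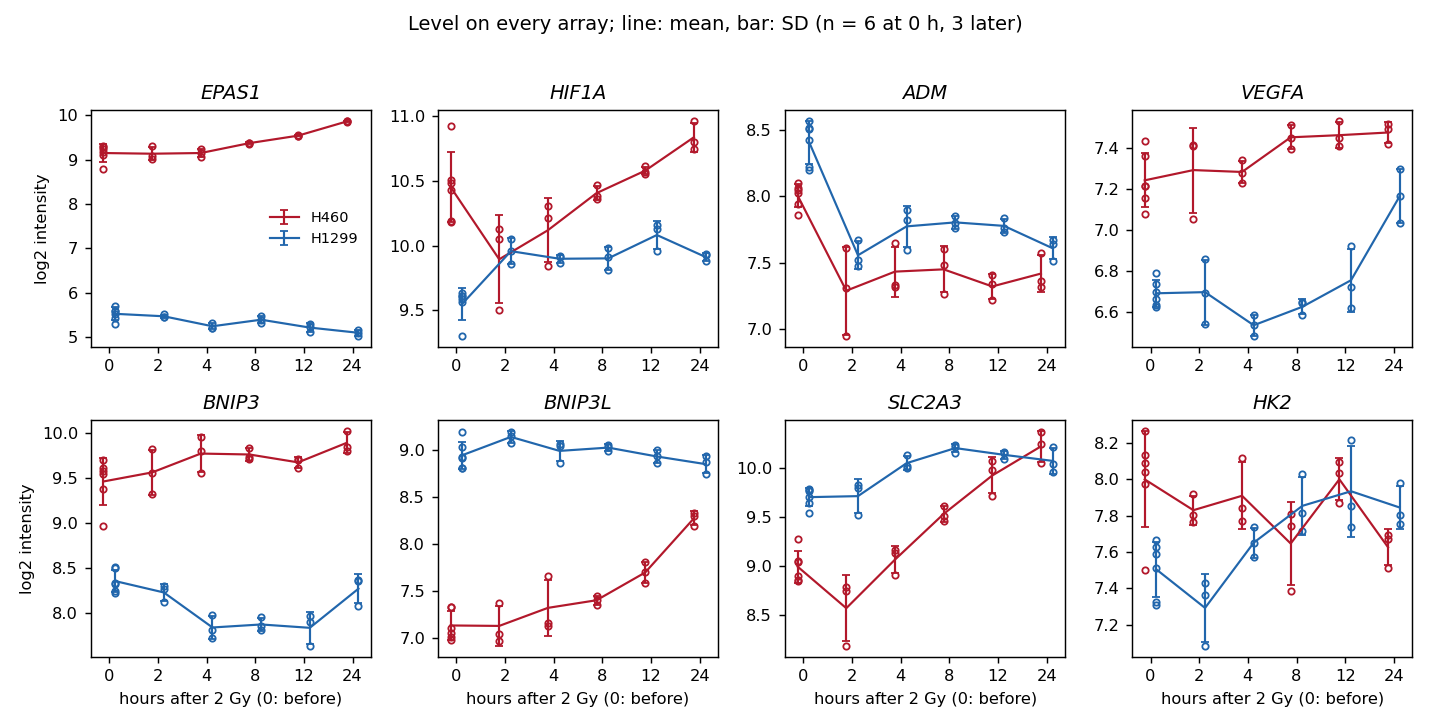
Log2 intensity of 8 genes on every array (circles) at 0 to 24 h, with 0 h before irradiation, in H460 (red) and H1299 (blue). Lines join group means and bars are SD (n = 6 at 0 h, 3 later); EPAS1 averaged 9.86 at 24 h in H460 and 5.09 in H1299, and ADM lay below its 0 h arrays at each later time in both lines.

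Among the HIF-type targets, ADM, the gene of the vasodilator peptide adrenomedullin, fell at every time in both lines. In H460 it read 6.95, 7.31 and 7.61 at 2 h and 7.58, 7.32 and 7.36 at 24 h, against 7.86 to 8.10 (median 8.04) at 0 h. In H1299 it read 7.48, 7.68 and 7.52 at 2 h and 7.67, 7.64 and 7.52 at 24 h, against 8.20 to 8.57 (median 8.47) at 0 h. No later array of either line reached the lowest array at 0 h of that line. The H460 changes lay between -0.56 ± 0.12 at 8 h and -0.72 ± 0.12 at 2 h, and the H1299 changes between -0.60 ± 0.08 at 8 h and -0.85 ± 0.08 at 2 h (adjusted p = 5.69e-07 at 2 h in H1299). With width in the model the H460 calls at 2, 8, 12 and 24 h were lost (adjusted p = 0.27, 0.33, 0.0861 and 0.0886), while the H460 time course kept an adjusted p of 0.000266. The H460 call at 4 h was lost without H460 4 h replicate 1 or replicate 3 (adjusted p = 0.0765 and 0.0937). The H460 change minus the H1299 change at 24 h was 0.21 ± 0.15, which was not called (adjusted p = 0.381).

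BNIP3 and BNIP3L, paired receptors that mark mitochondria for autophagy, moved differently. BNIP3L had 8.30, 8.34 and 8.19 in H460 at 24 h, against 6.98 to 7.33 (median 7.09) at 0 h. In H1299 it had 8.88, 8.94 and 8.75 at 24 h, against 8.81 to 9.19 (median 8.92) at 0 h. The H460 arrays at 24 h lay above all those at 0 h, and the H1299 arrays overlapped those at 0 h. The H460 change was 1.14 ± 0.12 (2.2-fold, adjusted p = 1.39e-07), and it was 1.08 with width in the model (adjusted p = 0.000135). The H1299 change was -0.09 ± 0.07 (adjusted p = 0.516). BNIP3 fell in H1299 at 4, 8 and 12 h, by 0.51 ± 0.09, 0.48 ± 0.09 and 0.52 ± 0.09 on the log2 scale, and its 24 h arrays (8.36, 8.38 and 8.08) overlapped those at 0 h (8.22 to 8.51, median 8.33) again. At 12 h its H1299 arrays had 7.64, 7.97 and 7.91. In H460, BNIP3 had 9.85, 10.02 and 9.80 at 24 h, against 8.97 to 9.70 (median 9.56) at 0 h, a change of 0.43 ± 0.13 (adjusted p = 0.0143). That call was lost without H460 24 h replicate 2 (0.36, adjusted p = 0.0995) and with width in the model (0.20, adjusted p = 0.564).

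P4HA1 and P4HA2, alpha subunits of the enzyme that hydroxylates prolines in collagen, rose late in H460. P4HA2 had 7.89, 7.90 and 7.89 at 24 h, against 6.94 to 7.48 (median 7.26) at 0 h, a change of 0.62 ± 0.11 (adjusted p = 0.000189, and 0.0344 with width in the model). P4HA1 had 9.93, 9.98 and 9.86 at 24 h, against 8.67 to 9.56 (median 9.26) at 0 h, a change of 0.73 ± 0.20 (adjusted p = 0.00869, and 0.645 with width in the model). Both sets of 24 h arrays lay above every array at 0 h. At 2 h P4HA1 had 8.74, 8.77 and 7.51, a change of -0.86 ± 0.20 against 0 h, and without H460 2 h replicate 3 the change was -0.44 (adjusted p = 0.0504). It was -0.08 with width in the model (adjusted p = 0.97). In H1299, P4HA2 had 7.53, 7.48 and 7.54 at 24 h, against 7.32 to 7.71 (median 7.59) at 0 h, and P4HA1 had 8.32, 8.07 and 8.43, against 7.35 to 8.35 (median 8.15), and neither gene was called there at any time.

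VEGFA, the vascular growth factor, rose in H1299 at 24 h alone among the time points. It had 7.16, 7.30 and 7.03 there, against 6.62 to 6.79 (median 6.68) at 0 h, with no overlap and a change of 0.47 ± 0.08 (adjusted p = 0.000397). In H460 it had 7.49, 7.51 and 7.42 at 24 h, against 7.07 to 7.43 (median 7.21) at 0 h, a change of 0.23 ± 0.10 that did not pass the test (adjusted p = 0.0818). The H460 time course of VEGFA was called (adjusted p = 0.0489, and 0.363 with width in the model). That call was kept in 4 of 21 refits with 1 array left out. CA12, a membrane carbonic anhydrase, rose in H460 at 12 h (0.38 ± 0.09) and 24 h (0.35 ± 0.09, adjusted p = 0.00594), with 8.66, 8.76 and 8.64 at 24 h, against 8.17 to 8.53 (median 8.33) at 0 h. Its calls at 12 and 24 h were lost with width in the model (adjusted p = 0.2 and 0.175), and that at 24 h without H460 24 h replicate 2 (adjusted p = 0.0518).

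KDM3A, a histone demethylase, and ERO1A, an oxidase of the endoplasmic reticulum, changed early in H460. KDM3A had 6.58, 6.49 and 5.85 at 2 h, against 6.75 to 7.12 (median 6.87) at 0 h, a change of -0.60 ± 0.13 (adjusted p = 0.00138). In H1299 it had 8.41, 8.55 and 8.51 at 2 h, against 7.91 to 8.35 (median 8.30) at 0 h, a change of 0.25 ± 0.08 (adjusted p = 0.0419). The 2 h arrays thus lay below the 0 h arrays in H460 and above them in H1299. The H1299 call at 2 h was lost when H1299 0 h replicate 4 or 5, 2 h replicate 2 or 3, any array at 4 h, 8 h replicate 1, 12 h replicate 3 or 24 h replicate 1 was left out, with adjusted p up to 0.171. ERO1A had 8.92, 8.62 and 8.23 in H460 at 2 h and 9.60, 9.76 and 9.46 at 24 h, against 8.81 to 9.49 (median 9.12) at 0 h. Both sets overlapped 0 h, with changes of -0.58 ± 0.14 at 2 h and 0.44 ± 0.14 at 24 h (adjusted p = 0.00213 and 0.0192). With width in the model the H460 change of KDM3A at 2 h was -0.05 and those of ERO1A were 0.00453 at 2 h and 0.08 at 24 h, none of them called. The ERO1A call at 24 h was also lost without H460 24 h replicate 1 (adjusted p = 0.0553) or replicate 2 (adjusted p = 0.126).

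Of the remaining HIF-type targets, ANKRD37 was called at a time point and the others were not. ANKRD37, an ankyrin-repeat protein, had a change of -0.30 ± 0.11 in H460 at 24 h (adjusted p = 0.0409, and 0.561 with width in the model). That call was lost without any 1 of H460 0 h replicates 1 to 5 or of the 3 arrays at 24 h. EGLN1 and EGLN3, the oxygen-sensing hydroxylases, and NDRG1, a stress-induced protein, were called at 0 time points in either line, although the H1299 time course of NDRG1 was called (adjusted p = 0.0338, and 0.376 with width in the model). Their largest changes in H460 were 0.26 for EGLN1 at 24 h, 0.33 for EGLN3 at 12 h and -0.17 for NDRG1 at 2 h.

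Among the glycolytic genes, SLC2A3, a glucose transporter with high affinity, changed most in both lines. In H460 it had 8.74, 8.78 and 8.18 at 2 h, 9.16, 8.90 and 9.13 at 4 h, 9.62, 9.46 and 9.51 at 8 h, 9.98, 10.07 and 9.72 at 12 h and 10.24, 10.37 and 10.05 at 24 h, against 8.85 to 9.27 (median 8.96) at 0 h. It lay below 0 h at 2 h and above it from 8 h on, without overlap. The 3 late changes were 0.54, 0.93 and 1.23, each ± 0.12 (2.34-fold at 24 h, adjusted p = 5.86e-08), and at 24 h it was 1.15 with width in the model. At 8 h it was 0.46 with width in the model and not called (adjusted p = 0.3). The 2 h change of -0.42 ± 0.12 was lost without H460 2 h replicate 3 (-0.23, adjusted p = 0.138) and with width in the model. In H1299 it had 10.13, 10.02 and 10.00 at 4 h, 10.16, 10.24 and 10.21 at 8 h, 10.15, 10.16 and 10.09 at 12 h and 10.04, 9.96 and 10.22 at 24 h, against 9.54 to 9.78 (median 9.73) at 0 h. These 12 arrays all lay above 0 h, with changes between 0.35 ± 0.07 at 4 h and 0.50 ± 0.07 at 8 h (adjusted p = 1.28e-05 at 8 h).

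SLC2A1, the more widely used glucose transporter, went the other way in H1299. It had 8.98, 8.88 and 8.79 at 2 h, 8.94, 8.82 and 8.80 at 4 h, 8.98, 8.81 and 8.78 at 8 h and 8.95, 8.98 and 8.80 at 12 h, against 9.09 to 9.21 (median 9.12) at 0 h, all of them below 0 h. The changes were -0.25, -0.28, -0.28 and -0.22, each ± 0.07, and at 24 h it was -0.09 ± 0.07 and not called (adjusted p = 0.485). The 2 h and 12 h calls were lost without replicate 3 of their own group in H1299 (adjusted p = 0.0975 and 0.0974). In H460 it had 10.45, 10.38 and 10.49 at 24 h, against 10.36 to 10.77 (median 10.53) at 0 h, and was called at 2 h alone, with -0.23 ± 0.08. That call was lost without H460 0 h replicate 4 or 2 h replicates 1 or 3 (adjusted p up to 0.0685) and with width in the model (adjusted p = 0.803).

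Of the hexokinases, which trap glucose in the cell, HK2 rose in H1299 and fell in H460. In H1299 it had 8.22, 7.85 and 7.73 at 12 h and 7.98, 7.75 and 7.80 at 24 h, against 7.31 to 7.67 (median 7.55) at 0 h, with changes of 0.35 ± 0.10 at 8 h, 0.43 ± 0.10 at 12 h and 0.34 ± 0.10 at 24 h (adjusted p = 0.0164, 0.00303 and 0.033). In H460 it had 7.67, 7.51 and 7.69 at 24 h, against 7.50 to 8.27 (median 8.06) at 0 h, a change of -0.37 ± 0.13 (adjusted p = 0.0345) with overlap. The H1299 calls were lost without H1299 8 h replicate 1 (adjusted p = 0.123), 12 h replicate 1 (0.0558), and at 24 h without 0 h replicate 1 or any of the 24 h arrays (up to 0.196). The 8 h call was also lost with width in the model (adjusted p = 0.0772). The H460 call was lost without H460 0 h replicates 2, 3, 4 or 5 or any of the 24 h arrays (up to 0.163) and with width in the model (0.25). HK1 had 7.85, 7.87 and 7.89 in H460 at 24 h, against 7.41 to 7.80 (median 7.54) at 0 h, a change of 0.32 ± 0.10. It was 0.10 and not called with width in the model, and without any 1 of the 24 h arrays its adjusted p reached 0.069.

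Phosphofructokinase, built from the PFKL, PFKM and PFKP subunits, commits sugar to glycolysis, and the PFKFB enzymes set the level of its activator. PFKM rose in H460, with 9.93, 9.84 and 9.94 at 24 h, against 9.07 to 9.50 (median 9.37) at 0 h, a change of 0.56 ± 0.11 (adjusted p = 0.000383, and 0.0641 with width in the model). In H1299 its largest change was 0.16 and did not pass. PFKFB2 had 5.75, 5.71 and 5.88 in H460 at 24 h, against 5.03 to 5.48 (median 5.26) at 0 h, with no overlap and changes of 0.50 ± 0.12 at 12 h and 0.51 ± 0.12 at 24 h, which were 0.62 at both times with width in the model. In H1299 PFKFB2 had 5.39, 5.56 and 5.48 at 24 h, against 5.56 to 6.08 (median 5.71) at 0 h, a change of -0.29 ± 0.12 that did not pass the test (adjusted p = 0.117). PFKFB3 rose in H1299 at 8 h (0.22 ± 0.08) and 12 h (0.26 ± 0.08), and was called at 0 times in H460. The 12 h call was lost without H1299 12 h replicate 3 (0.21, adjusted p = 0.106), and the 8 h call without any of 16 arrays, so an adjusted p of 0.0484 there lay at the threshold. Both calls were lost with width in the model (adjusted p = 0.158 at 8 h and 0.0816 at 12 h). PFKL fell at 2 h in both lines: it had 7.57, 8.08 and 8.25 in H460, against 8.09 to 8.46 (median 8.36) at 0 h, and 7.88, 8.06 and 7.72 in H1299, against 8.05 to 8.48 (median 8.21) at 0 h. The changes were -0.36 ± 0.12 in H460 and -0.36 ± 0.09 in H1299, both with overlap. They were lost without H460 2 h replicate 1 (-0.17, adjusted p = 0.248) and without H1299 2 h replicate 3 (-0.28, adjusted p = 0.102). The H460 change was -0.41 with width in the model and not called (adjusted p = 0.654).

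Other enzymes of the pathway, LDHA, GPI and PGK1, rose in H460 late in the course. LDHA, which turns pyruvate into lactate, had 12.54, 12.51 and 12.54 in H460 at 12 h and 12.47, 12.51 and 12.48 at 24 h, against 12.16 to 12.45 (median 12.24) at 0 h. The later arrays lay above 0 h, with changes of 0.27 ± 0.09 at 12 h (adjusted p = 0.0269) and 0.23 ± 0.09 at 24 h (adjusted p = 0.0628). The 12 h change was 0.03 with width in the model, and the call was lost without H460 0 h replicate 5 or any of the 12 h arrays (adjusted p up to 0.0821). In H1299, LDHA had 11.81, 11.84 and 11.81 at 24 h, against 11.63 to 11.83 (median 11.80) at 0 h, and was called at 0 times. GPI and PGK1, an isomerase and a kinase of the pathway, had changes of 0.35 ± 0.09 and 0.36 ± 0.11 in H460 at 24 h and of 0.15 and -0.02 in H1299, where neither passed. In the model with width the H460 changes were 0.23 and 0.07, neither called, and that of PGK1 was lost without H460 24 h replicate 2 (adjusted p = 0.0914).

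ENO2, the neuronal enolase, rose in H1299 at 24 h, with 7.89, 7.88 and 7.88, against 7.32 to 7.68 (median 7.55) at 0 h, a change of 0.35 ± 0.07 (adjusted p = 0.00204). In H460 it had 6.52, 6.87 and 6.67 at 24 h, against 6.64 to 7.05 (median 6.84) at 0 h. ALDOC, the brain-type aldolase, fell in H1299 at 12 h, with 5.14, 5.01 and 5.07, against 5.31 to 5.64 (median 5.39) at 0 h, a change of -0.35 ± 0.10 (adjusted p = 0.00928). Without H1299 12 h replicate 2 its adjusted p was 0.0545, and with width in the model it was 0.082. In H460 it had 7.50, 7.50 and 7.33 at 12 h, against 7.42 to 8.06 (median 7.67) at 0 h, and was called at 0 times. ALDOA, TPI1, PFKFB4 and PKM were called at 0 times in H460, with largest changes between -0.21 and 0.12. In H1299 at 2 h ALDOA (-0.20 ± 0.06), TPI1 (-0.19 ± 0.06) and ALDOC were called lower. Each of these calls was lost without H1299 2 h replicate 2 or replicate 3 (adjusted p up to 0.157). The H1299 time course of PKM was called (adjusted p = 0.037, and 0.189 with width in the model).

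Late in the course the HIF-type targets had the higher median change in H460 and the glycolytic genes had it in H1299. In H460 at 24 h 6 of 13 HIF-type targets rose and 2 fell, and 6 of 19 glycolytic genes rose and 1 fell, where 16.2% of all genes were called higher and 12.4% lower. With width in the model BNIP3L and P4HA2 alone kept the call among these HIF-type targets, and SLC2A3 and PFKFB2 alone among these glycolytic genes. The median change was 0.26 over the HIF-type targets and 0.10 over the glycolytic genes, against -0.05 over all genes. At 12 h these medians were 0.30 and 0.09, against -0.04. At 2 h they were -0.17 and -0.21, against -0.01. In H1299 at 24 h 1 HIF-type target rose and 1 fell, and 3 glycolytic genes rose and 0 fell, where 8.53% of all genes were called higher and 3.21% lower, with medians of -0.02 and 0.11, against 0.00 over all genes. With width in the model the H460 medians at 24 h were 0.12 and 0.04, and those at 12 h were 0.01 and 0.00. After quantile normalization they were 0.13 and -0.01 at 24 h and 0.15 and -0.05 at 12 h, so the sign of the glycolytic median turned. These medians are descriptions, without a test of one list against the other.

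**Figure D3:**
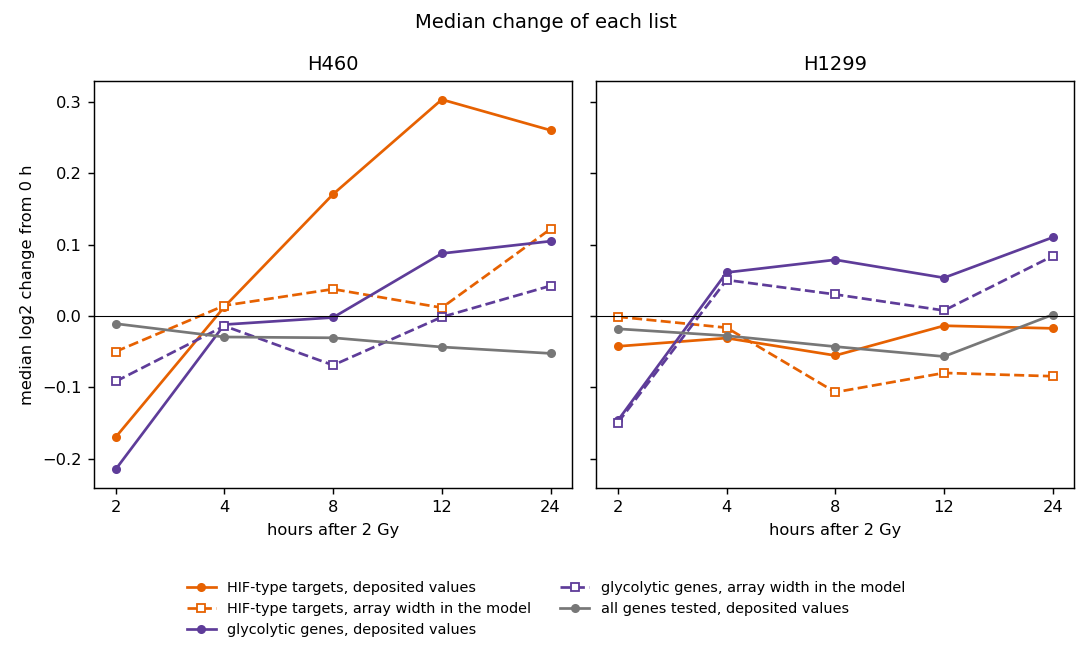
Median log2 change from 0 h of the 13 HIF-type targets (orange), the 19 glycolytic genes (purple) and all 18404 genes tested (grey) at 2 to 24 h in H460 (left) and H1299 (right). Dashed lines with open squares are the same medians with array width in the model; at 24 h in H460 the HIF-type targets stand at 0.26 as deposited and 0.12 with width.

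Whether the lines responded differently was tested on the changes themselves. By the time course, 13 of 34 members differed between H460 and H1299, beside 16.7% of all genes, and 9 of the 13 did so with width in the model. At 24 h 9 members differed (7 with the larger value in H460, 2 in H1299), beside 12.4% of all genes (7.75% and 4.7%), and at 12 h 5 did (4 and 1), beside 8.68% (5.21% and 3.47%). Of the 5 at 12 h EPAS1 kept its call with width in the model, and BNIP3, BNIP3L, SLC2A3 and PFKFB3 did not. By the time course CA12, PFKFB3, PFKM and PGK1 lost it (adjusted p = 0.0572, 0.0646, 0.206 and 0.159). The H460 change minus the H1299 change at 24 h was 1.23 ± 0.14 for BNIP3L, 1.14 ± 0.13 for EPAS1, 0.86 ± 0.15 for SLC2A3, 0.80 ± 0.17 for PFKFB2, 0.74 ± 0.18 for CA12, 0.66 ± 0.14 for P4HA2 and 0.51 ± 0.16 for BNIP3. It was -0.71 ± 0.17 for HK2 and -0.48 ± 0.15 for ENO2. Adjusted p was 3.25e-08 for BNIP3L and 1.69e-08 for EPAS1. The CA12 difference includes an H1299 change of -0.39 that was not called, from a mean of 4.37 at 0 h to 3.98 at 24 h. Without detection calls it is not known whether the H1299 values of CA12 and EPAS1 lie above background. With width in the model CA12 and BNIP3 lost the call (adjusted p = 0.0614 and 0.43) and the other 7 kept it. BNIP3 also lost it without H460 24 h replicate 2 or H1299 24 h replicate 3 (adjusted p = 0.107 and 0.112), and ENO2 without H460 24 h replicates 1 or 3 or H1299 24 h replicate 1 (adjusted p = 0.102, 0.0535 and 0.0546). All 4 HIF-type targets called had the larger change in H460, while of the 4 glycolytic genes called SLC2A3 and PFKFB2 had it in H460 and HK2 and ENO2 in H1299.

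**Figure D4:**
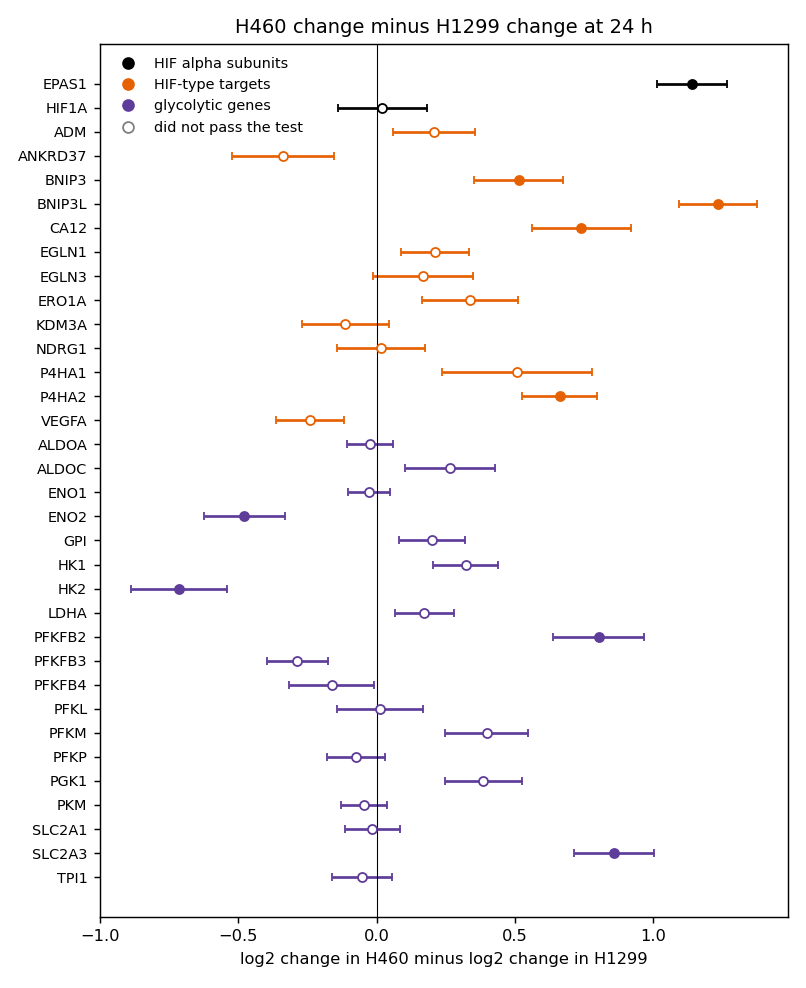
H460 change minus H1299 change at 24 h (log2, point) with its model standard error (bar) for each measured gene; filled points passed the test at adjusted p under 0.05. BNIP3L at 1.23 and EPAS1 at 1.14 lie farthest right and HK2 at -0.71 farthest left.

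Before irradiation the lines differed in most of these genes. Of 34 members, 27 differed at 0 h, 18 higher and 9 lower in H460, beside 55.1% of all genes (26.0% higher, 29.1% lower). EPAS1 was 3.63 ± 0.10 higher in H460 (log2), with 8.78 to 9.30 on the 6 H460 arrays, against 5.29 to 5.70 on the 6 H1299 arrays. CA12 had 8.17 to 8.53 in H460, against 4.01 to 4.68 in H1299, a difference of 3.97 ± 0.12. No fold is given for EPAS1 or CA12, since without detection calls it is not known whether their H1299 values lie above background. ALDOC (2.25 ± 0.11), SLC2A1 (1.41 ± 0.07), P4HA1 (1.14 ± 0.15), BNIP3 (1.10 ± 0.10), NDRG1 (1.07 ± 0.11) and HIF1A (0.91 ± 0.10) were higher in H460 too. BNIP3L had 6.98 to 7.33 in H460, against 8.81 to 9.19 in H1299, a difference of -1.81 ± 0.09. KDM3A (-1.33 ± 0.09), ENO2 (-0.71 ± 0.09) and SLC2A3 (-0.71 ± 0.08) were lower in H460 as well. The arrays of the 2 lines did not overlap for 23 of the 27, where 64.0% of all genes called did not, or for 23 of 34 members, beside 35.3% of all genes. In the model with width 25 of the 27 kept their call, and GPI and P4HA2 lost it. SLC2A3 and BNIP3L, lower in H460 at 0 h, were the genes with the largest rises there, so at 24 h SLC2A3 averaged 10.22 in H460 and 10.07 in H1299, and BNIP3L 8.28 in H460 and 8.85 in H1299.

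**Figure D5:**
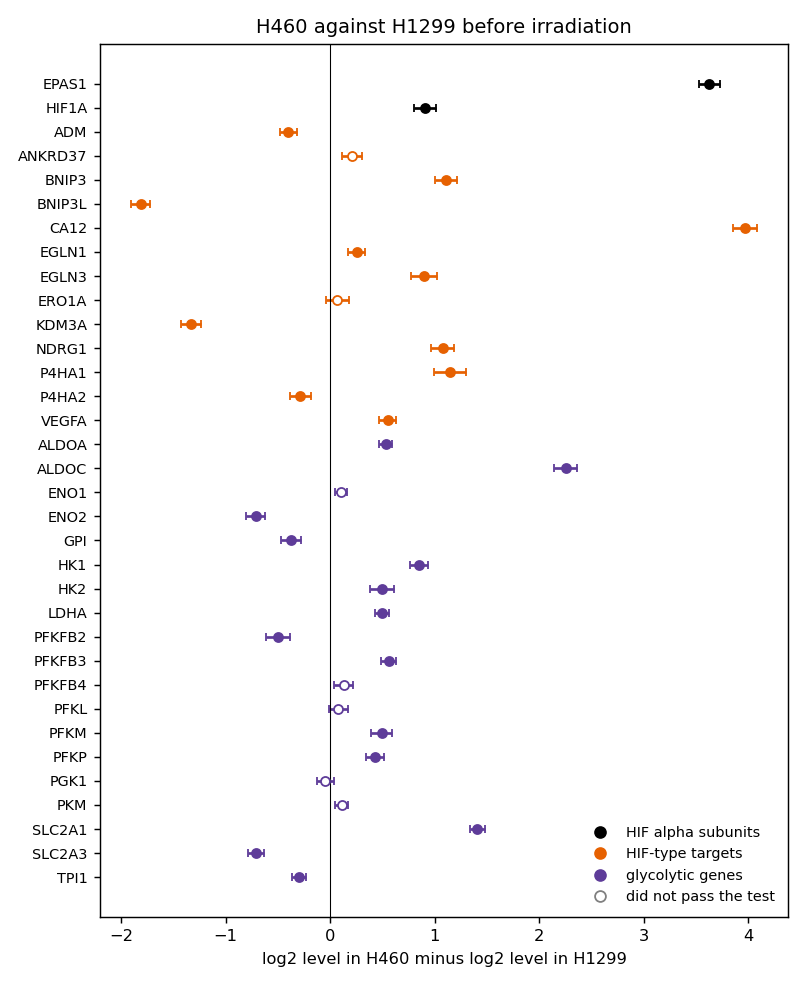
H460 level minus H1299 level at 0 h (log2, point) with its model standard error (bar), 6 arrays per line; filled points passed the test at adjusted p under 0.05. CA12 at 3.97 and EPAS1 at 3.63 lie farthest right and BNIP3L at -1.81 farthest left.

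Other genes of the pathway were taken from 4 lists. Among all genes 16.2% were called higher and 12.4% lower in H460 at 24 h, and 8.53% higher and 3.21% lower in H1299, and the list counts that follow are read against these shares. How many of the calls in these lists were kept with array width in the model is not given here. Of 9 measured genes of HIF sensing, 1 rose and 1 fell in H460 at 24 h, and 2 rose and 3 fell in H1299. CITED2, which competes with HIF for a coactivator, averaged 8.30 ± 0.05 in H460 at 24 h (SD, n = 3), against 8.00 ± 0.15 at 0 h (n = 6), and 7.95 ± 0.04 in H1299 at 24 h, against 8.75 ± 0.12 at 0 h. Its H460 change of 0.29 at 24 h was lost with width in the model (adjusted p = 0.0677). Earlier it was called lower in H460, at 4 h and at 2 h, where the change was -0.55 ± 0.10 (adjusted p = 0.000347, and 0.286 with width in the model). At 24 h its H1299 change was -0.80 ± 0.07 (adjusted p = 2.44e-08), and its H460 change minus its H1299 change was 1.09 ± 0.12 (adjusted p = 1.41e-08). Of 31 other hypoxia-inducible genes, 15 rose and 1 fell in H460 at 24 h (median 0.32), and 9 rose and 2 fell in H1299 (median 0.08). DDIT4, an inhibitor of mTOR signalling that also responds to DNA damage, rose in both, by 1.33 ± 0.15 in H460 and 2.06 ± 0.13 in H1299. PPP1R3C, which targets a phosphatase to glycogen, rose by 1.18 ± 0.10 in H460 and had -0.21 ± 0.15 in H1299. The transcription factor BHLHE40 rose by 0.93 ± 0.11 in H460 and had 0.18 ± 0.08 in H1299. In H1299 STC2, a secreted glycoprotein, rose by 0.93 ± 0.10 at 24 h, and TFRC, the transferrin receptor, fell by 0.94 ± 0.12 on the log2 scale.

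Of 17 further genes of glycolysis, 3 rose and 2 fell in H460 at 24 h (median -0.11), and 0 were called in H1299 at 24 h. Earlier in H1299 3 fell at 4 h, 2 at 8 h and 3 at 12 h, beside 5.83%, 9.54% and 13.1% of all genes. The shares of all genes are again 16.2% higher and 12.4% lower in H460 at 24 h, and 8.53% and 3.21% in H1299. Of 14 genes that set the fate of pyruvate, 9 rose and 0 fell in H460 at 24 h (median 0.43), and 3 rose and 2 fell in H1299 (median 0.04). PDK4, a kinase that switches off pyruvate dehydrogenase, averaged 8.70 ± 0.16 in H460 at 24 h (SD, n = 3), against 5.99 ± 0.22 at 0 h (n = 6), with 8.52 the lowest array at 24 h and 6.35 the highest at 0 h. In H1299 it averaged 4.87 ± 0.29 at 24 h, against 4.72 ± 0.22 at 0 h. The H460 change was 2.71 ± 0.13 (6.54-fold, adjusted p = 1.51e-13), it was 2.32 with width in the model, and it exceeded that of H1299 by 2.56 ± 0.19 (adjusted p = 1.06e-12). PC, which makes oxaloacetate from pyruvate, rose by 0.68 ± 0.11 and PDHB, a subunit of pyruvate dehydrogenase, by 0.54 ± 0.11 in H460, and PDHB lost the call with width in the model (adjusted p = 0.297). PCK2, a mitochondrial enzyme of glucose synthesis, rose in both lines at 24 h, by 0.60 ± 0.13 in H460 and 0.62 ± 0.08 in H1299.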

How the data were processed

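The series holds 42 arrays of 2 cell lines, in 12 groups set by line and hour, hybridised from 100 ng of total RNA each. The authors deposited log2 values per probe set, and their normalization and summary method are not given in the sources used here. Per the deposited table these log2 values run from 1.45 to 14.2 in 32321 entries. A single gene symbol was given for 19158, several for 1388, and 11775 were outside the probe table. Keeping the entry with the highest mean per gene left out 754 and gave 18404 genes, tested without a filter.

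Models were fitted over all genes in R 4.3.3 by limma 3.58.1, using lmFit and a trended eBayes, and checked on simulated data. The design text of the series names quadratic regression, so each line's time course was a moderated F-test of both time terms in hours over its 21 arrays. Each later time was also contrasted with 0 h after fitting a mean for each time. The difference between lines was the interaction over 42 arrays, and the lines at 0 h were compared over 12 arrays. Tests were two-sided, with Benjamini-Hochberg adjustment over all genes and calls at an adjusted p under 0.05. An error after ± is the model's standard error unless SD is named. Precision is limited by how many arrays there are.

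The members, lists and tests were chosen with earlier results of these data known, so their choice lends no independent support. Any member may be named. Given in full are HIF1A, EPAS1, VEGFA, SLC2A1, HK2, LDHA and the 10 called members with the largest change in each line, and PFKFB2 was added after values were seen. Of each of the 4 pathway lists up to 3 called genes per line could be named. Apart from the percentiles of mean level and the levels of marker genes, levels of different genes were not set against each other. The values carry no common scale between genes. Array width was the interquartile range over genes. Other settings were median centring, quantile normalization, width as a covariate, no variance trend, the mean over entries, leaving out the 33.3% dimmest genes, 0 h replicates 1 to 3 or 4 to 6 alone, a replicate block, 1 mean per time, and each array left out. After the data were seen, a setting without 4 narrow arrays (the 3 H460 arrays at 2 h and H1299 0 h replicate 2) was added. These are not the 4 narrowest. H460 0 h replicates 5 and 2 (widths 3.14 and 3.22) were narrower than H1299 0 h replicate 2 (3.24) and were kept. Promoter windows are RefSeq's, GRCh38.p14. Some genes are not analysed here.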

Additional observations from a re-analysis of the deposited data

Results flagged for a closer look

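In groups of 6 arrays, the ones at 0 h, an array was set apart when its gap to its neighbour was large against the range of the group. Of 68 such groups, 10 held one, where about 1 in 20 would by chance. The genes were read on the same arrays, so the groups are not independent and this rate gives no test. H1299 0 h replicate 2, the narrowest H1299 array at 0 h, was the low array for 7 genes: HIF1A (9.30), P4HA1 (7.35), KDM3A (7.91), ERO1A (8.73), GPI (11.1), PFKP (8.64) and PGK1 (11.7). The nearest of the other arrays had 9.56 for HIF1A and 7.99 for P4HA1. EPAS1 was low on H460 0 h replicate 1 (8.78, nearest 9.11). PFKP (9.62, nearest 9.43) and TPI1 (11.6, nearest 11.5) were high on H460 0 h replicate 6. Without the 4 narrow arrays 7 of the 8 members called in H1299 at 8 h kept the call.

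The change differed between the lines, by a test of the difference itself, for the following genes. At 12 h the H460 change minus the H1299 change was 0.73 for BNIP3, 0.58 for BNIP3L, 0.70 for EPAS1, 0.50 for SLC2A3 and -0.44 for PFKFB3. With array width in the model EPAS1 kept the call at 12 h (adjusted p = 0.00745), and BNIP3 (0.222), BNIP3L (0.0947), SLC2A3 (0.0976) and PFKFB3 (0.179) lost it. The SLC2A3 difference at 12 h was lost without H460 12 h replicates 1 or 2 or H1299 12 h replicate 3 (adjusted p = 0.0688, 0.102 and 0.0654). At 24 h it was 0.51 for BNIP3, 1.23 for BNIP3L, 0.74 for CA12, -0.48 for ENO2, 1.14 for EPAS1, -0.71 for HK2, 0.66 for P4HA2, 0.80 for PFKFB2 and 0.86 for SLC2A3, and with width BNIP3 and CA12 lost the call. Over the whole time course the adjusted p of the difference was 0.000324 for BNIP3, 1.30e-08 for BNIP3L, 0.00257 for CA12, 0.0165 for ENO2, 2.89e-08 for EPAS1, 0.00438 for HK2, 0.000639 for P4HA2, 0.000384 for PFKFB2, 0.00367 for PFKFB3, 0.0394 for PFKM, 0.0216 for PGK1, 0.000249 for SLC2A3 and 0.0166 for VEGFA. With width in the model it was 0.0572 for CA12, 0.0646 for PFKFB3, 0.206 for PFKM and 0.159 for PGK1, and the other 9 kept the call. The PFKM difference was lost without any of 12 arrays (adjusted p up to 0.128) and that of VEGFA without H1299 24 h replicate 2 (0.0635).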

How the results depend on the processing

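Of the settings run other than leaving out 1 array, width as a covariate moved 7 of 16 counts of members, against 4 of 16 after quantile normalization, which moved 13 of 26 list medians, against 11 of 26 with width. With width as a covariate the members called in H460 were 0 at 2 h, 3 at 4 h, 0 at 8 h, 2 at 12 h, 5 at 24 h and 8 by the time course, and 2 for the difference at 12 h. The HIF-type medians were then 0.038, 0.012 and 0.12 at 8, 12 and 24 h in H460 and -0.11, -0.080 and -0.084 at those times in H1299. The glycolytic medians were -0.092, -0.069, -0.0013 and 0.042 at 2, 8, 12 and 24 h in H460, and 0.015 for the difference at 12 h. At 2 h in H460 the sign turned for ERO1A (0.0045), HK1 (0.0075), PPP1R3C (0.080) and PGAM2 (-0.15), none of them called there with width. After quantile normalization H460 had 7, 7, 7 and 11 members called at 2, 8, 12 and 24 h, HIF-type medians of 0.010, 0.039, 0.15 and 0.13 and glycolytic medians of -0.077, -0.12, -0.046 and -0.014 at those times, and CA12 at 2 h turned to 0.022. The HIF-type median in H1299 at 24 h was -0.073, the medians at 0 h were 0.38 (HIF-type) and 0.21 (glycolytic), and the glycolytic median of the difference was -0.014 at 12 h and -0.10 at 24 h. The cause was not tested.

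Median centring gave glycolytic medians of 0.067 and 0.063 in H460 at 4 and 24 h, and the mean over entries gave 0.039 at 12 h. Without dim genes the HIF-type median at 0 h was 0.40 and 8 members differed at 12 h. With 1 mean per time 20 members differed by the time course. With 0 h replicates 1 to 3 alone 8 members were called in H460 at 2 h, 4 in H1299 at 2 h and 3 for the difference at 12 h, and the medians were 0.029 (HIF-type, H1299 4 h), 0.13 (glycolytic, H1299 12 h) and 0.26 (glycolytic, 0 h). With 0 h replicates 4 to 6 alone 0 were called in H460 at 4 h, and the HIF-type medians were -0.091 in H1299 at 4 h and 0.35 for the difference at 24 h. Without the 4 narrow arrays, 3 members were called in H460 at 4 h and 15 differed at 24 h. Dropping the variance trend moved no count of members by over 1.5 times.

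Same-numbered arrays did not deviate together (correlations of -0.23 to 0.17 in H460 and -0.37 to 0.20 in H1299, 6 and 12 of 45 pairs over 0.1), so the numbers were not taken as pairs. With the replicate block, 7 members were called in H460 at 2 h, 0 in H460 at 4 h, 3 in H1299 at 2 h and 3 for the difference at 12 h, with medians of 0.029 (HIF-type, H1299 4 h) and 0.13 (glycolytic, H1299 12 h).

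With 1 array left out at a time, the members called ran from 7 to 14 in H460 at 2 h (7 without 2 h replicate 3), 0 to 3 at 4 h (0 without 4 h replicates 1 or 3, 2 without 2 h replicate 1, 3 without 2 h replicate 3), 2 to 7 at 8 h (2 without 0 h replicates 2 or 4 or any 8 h array, 7 without 0 h replicate 6), 7 to 17 at 12 h (7 without 12 h replicate 2, 17 without 0 h replicate 6) and 9 to 20 at 24 h (9 without 24 h replicate 2), and from 2 to 10 in H1299 at 2 h (4 and 2 without 2 h replicates 2 and 3). The glycolytic median in H460 at 24 h ran from 0.062 to 0.13 and the HIF-type median in H1299 at 12 h from -0.042 to 0.031. The 170 calls of members were refitted in this way 3894 times in all. The call was kept in 3645 refits and lost in 249, and 0 changes turned sign, where time course tests carry no sign. These are counts of refits and not of calls. Of the calls at 24 h, 8 of 17 in H460 and 1 of 7 in H1299 were lost in some refit. Other settings lost more of the 170 calls. With width as a covariate 100 were kept, 68 were lost and 2 turned sign. After quantile normalization 124 were kept, 45 were lost and 1 turned sign. In H460 quantile normalization kept 9 of 17 calls at 24 h and 10 of 18 by the time course.

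Single genes were refitted under other settings for called changes alone. A median was counted as moved when it shifted by more than 1 SD of all groups in its difference combined, which 35 of 258 did. This measure was adopted after the SD of the later group alone had been tried and had given 92, so the count of moved medians depends on that choice, while no value or call does.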
